A study of Saccharomyces cerevisiae with 36 samples.

Results

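The genes described here are 10 amino acid permease genes of the budding yeast Saccharomyces cerevisiae: GAP1, AGP1, BAP2, BAP3, TAT1, TAT2, GNP1, MUP1, LYP1 and DIP5. They were taken by gene symbol from the array's probe annotation, and all 10 were found among the 5656 genes tested. Each was read by 1 probe set. Their systematic names are YKR039W for GAP1, YCL025C for AGP1, YBR068C for BAP2, YDR046C for BAP3, YBR069C for TAT1, YOL020W for TAT2, YDR508C for GNP1, YGR055W for MUP1, YNL268W for LYP1 and YPL265W for DIP5. The cells were in continuous culture and passed through 3 successive metabolic cycles, each sampled at 12 positions about 25 min apart, with 1 Affymetrix array per position and cycle. The 3 arrays of a position are the replicates. No strain, genotype, medium or treatment is given in the sources used here, and nothing says that the cycles came from separate cultures, so each p-value rests on the spread among these 36 arrays, which may be technical. Values are probe-set intensities in multiples of the array's median, and the number of arrays limits their precision. Levels of different genes come from different probe sets and are not compared. Across genes, the log2 values of arrays that share a position correlated at 0.976 in the median and at 0.833 at the lowest.

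Amino acid permeases are plasma membrane proteins that carry amino acids into the cell together with protons. Yeast runs several systems that differ in range. Gap1 takes up nearly all amino acids and is made when preferred nitrogen sources are scarce, under the GATA factors Gln3 and Gat1. A second group, which includes AGP1, BAP2, BAP3, TAT1, TAT2 and GNP1, is induced by amino acids outside the cell through the sensor Ssy1 with Ptr3 and Ssy5, which release the transcription factors Stp1 and Stp2. Permeases are also removed from the membrane after ubiquitin is attached by the ligase Rsp5, so a transcript level does not give transport activity.

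All 10 permease genes were called higher at position 8 or at position 9 than the mean of the other 11 positions (limma, Benjamini-Hochberg adjusted p under 0.05 over all genes). Among all genes tested, 34.3% were called higher at either position. At position 8 the call covered 9 of the 10, every member except DIP5, against 23.7% of all genes. At position 9 it covered 7 of the 10, namely GAP1, AGP1, BAP3, TAT2, GNP1, MUP1 and DIP5, against 24.3% of all genes. No member was called lower at either position. These tests pool a gene's spread over all 12 positions, so SEs and p-values understate it where arrays of positions 8 and 9 varied more. The SD of log2 values was 0.963 for TAT1 at position 8, against 0.471 pooled within its positions. For DIP5 at position 9 it was 0.926 against 0.415, while for GAP1 at position 8 it was lower, 0.162 against 0.297. Without cycle 2 the count at position 8 was 6, against 12.3% of all genes, since the calls of GAP1, BAP2 and BAP3 were lost. Without cycle 3 it was 7, against 11.6%, with GAP1 and BAP3 lost. Without cycle 1 the count at position 9 was 5, against 19.7%. The count at either position was 9 without cycle 2, against 21.8%, since BAP2 then had neither call (limma adjusted p = 0.05025 at position 8 and 0.23 at position 9). It stayed at 10 without cycle 1, against 38.4%, and without cycle 3, against 28.6%.

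**Figure D1:**
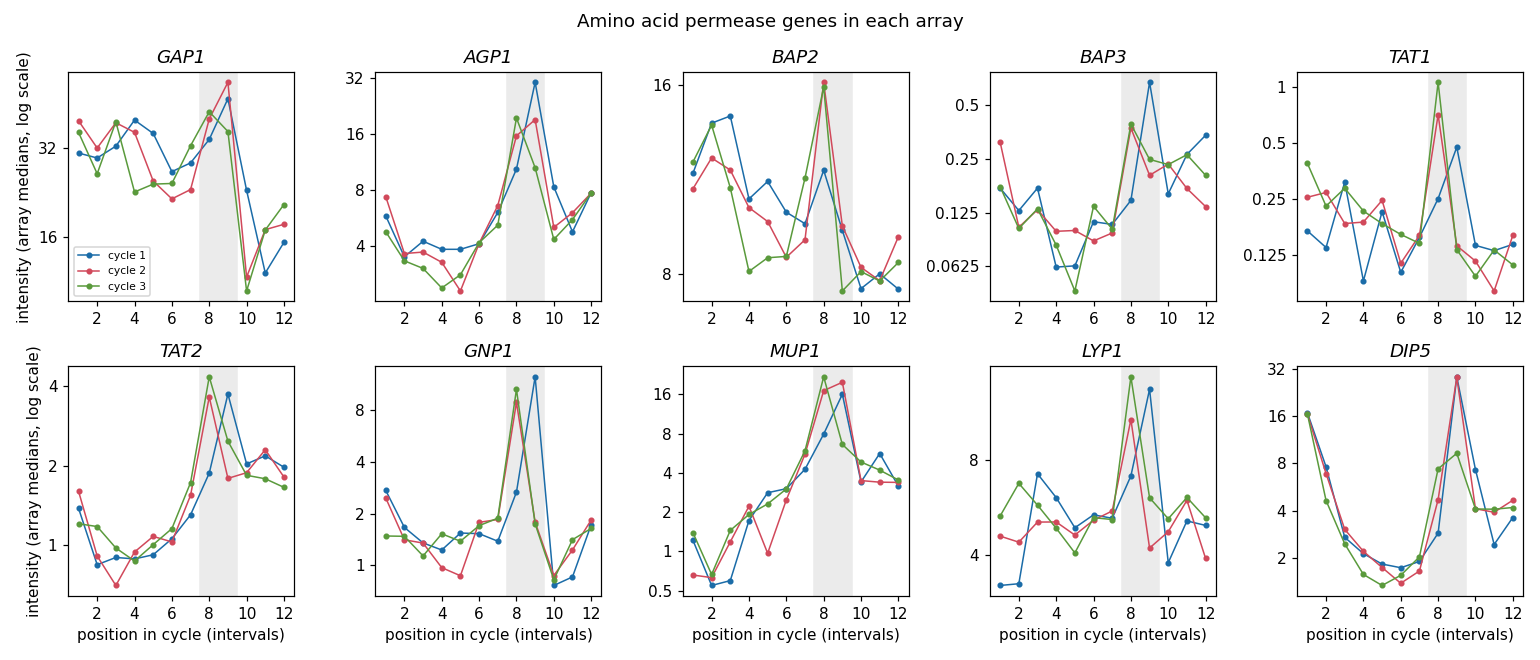
Intensity of each permease gene (in array medians, log scale) against position in the cycle (in intervals), with 1 line per cycle and positions 8 and 9 shaded. In 28 of the 30 combinations of gene and cycle the highest array lies in the shaded band, with BAP2 in cycle 1 and DIP5 in cycle 3 as the exceptions. Over all genes tested, 35.5% of such combinations have their highest array at these positions.

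The highest array of a cycle fell at position 8 or 9 in all 3 cycles for 8 of the 10 members, against 22.8% of all genes by the same count, which is a description with no test. In cycle 1 the highest array was at position 9 for 9 members. In cycle 2 it was at position 8 for BAP2, BAP3, TAT1, TAT2, GNP1 and LYP1, and at position 9 for GAP1, AGP1, MUP1 and DIP5. In cycle 3 it was at position 8 for 9 members. The position of the highest array thus differed between cycles, which was not tested, and the means of 3 arrays at positions 8 and 9 mix both. No all-gene shares are given here for these counts by cycle.

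**Figure D2:**
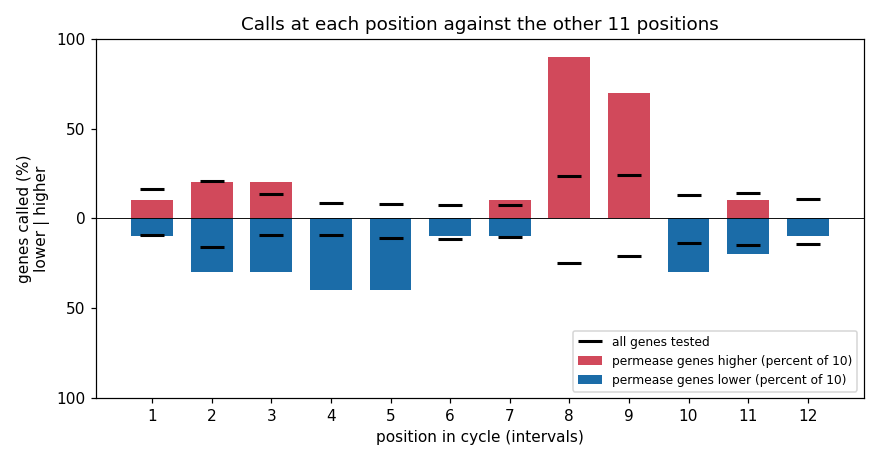
Percent of the 10 permease genes called higher (red, upwards) or lower (blue, downwards) at each position (in intervals) than at the other 11 positions, with all genes tested as black marks. The red bars reach 9 of 10 genes at position 8 and 7 of 10 at position 9.

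Over all positions the members had 46 calls in 120 tests, or 38.3%, against 27.9% of the tests of all genes. Without cycle 2 they had 23, or 19.2%, against 12.6%. Outside the burst their calls went in both directions. At position 1, DIP5 was called higher (16.2% of all genes were) and MUP1 lower (9.48%). At position 2, BAP2 and DIP5 were called higher (21.0%), and AGP1, TAT2 and MUP1 lower (16.2%). At position 3, GAP1 and BAP2 were called higher (13.6%), and AGP1, TAT2 and MUP1 lower (9.03%). AGP1, BAP3, TAT2 and DIP5 were called lower at position 4 (9.51% of all genes) and at position 5 (10.7%). DIP5 was also called lower at position 6 (11.5%) and position 7 (10.1%), where MUP1 was already called higher (7.58%). At position 10, GAP1, BAP2 and GNP1 were called lower (13.7%). GAP1 and BAP2 were so at position 11 (15.1%) and GAP1 at position 12 (14.6%), while TAT2 was called higher at position 11 (14.2%). Apart from positions 8 and 9, no position had more than 4 of the 10 members called in a direction.

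GAP1 encodes the general amino acid permease. Its intensity at position 9 was 47.1, 53.5 and 36.4 in cycles 1, 2 and 3, with a mean of 45.7 ± 8.63 (SD, n = 3). At position 10, the next interval, it was 23.0, 11.7 and 10.5, with a mean of 15.0 ± 6.91. The arrays of these positions did not overlap, and the lowest of all 36 values was at position 10. The step into position 10 was the steepest fall of GAP1 in each cycle, at -1.03, -2.19 and -1.79 on the log2 scale. GAP1 stayed low at positions 11 and 12, with means of 15.3 ± 2.79 and 17.8 ± 2.64, and stood at 30.8, 39.6 and 36.2 at position 1. Relative to the other positions it was higher by 0.81 ± 0.17 log2 (SE, limma adjusted p = 0.00037) at position 9 and lower at position 10, with a difference of -1.02 ± 0.17 (adjusted p = 3.7e-05). At positions 1 to 9 GAP1 lay between 21.5 and 53.5, and at positions 10 to 12 it was below that range except for the 23.0 of cycle 1.

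AGP1 encodes a permease of broad range for neutral amino acids such as asparagine and glutamine. Its intensity was 10.4, 15.6 and 19.5 at position 8 and 30.3, 19.1 and 10.6 at position 9, for cycles 1, 2 and 3. At position 5 it was 3.85, 2.30 and 2.81. The burst arrays all lay above the other 30 arrays, of which the highest was 8.33, at position 10 of cycle 1. The position means ran from 20.0 ± 9.90 (SD, n = 3) at position 9 to 2.99 ± 0.789 at position 5, and the mean log2 values of these positions differed by 2.62. The fitted swing, the peak-to-trough difference of a cosine with a period of 12 intervals, was 1.79 ± 0.26 log2 (SE, limma adjusted p = 8.4e-07). Its fitted peak was at position 9.38. AGP1 was called lower at positions 2 to 5, where GAP1 had no such call.

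BAP2 encodes a permease for leucine, isoleucine and valine. It moved least, with position means from 14.6 ± 2.50 (SD, n = 3) at position 8 to 7.88 ± 0.118 at position 11, or 1.83-fold from the mean log2 values. At position 8 it was 11.7, 16.2 and 15.9 in cycles 1, 2 and 3. At position 2 it was 13.9, 12.3 and 13.8, so in cycle 1 position 2 lay above position 8. At position 9 it had already come down to 9.40, 9.56 and 7.53. The difference from the other positions was 0.57 ± 0.11 log2 (SE) at position 8 (limma adjusted p = 0.00015). It was 0.44 ± 0.11 at position 2 (adjusted p = 0.0027).

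BAP3, a closely related permease for branched-chain amino acids, lay among the dimmest 25% of genes, with values between 0.0455 and 0.672. No detection calls were used here, so its changes are those of a dim probe set. It was 0.146, 0.373 and 0.392 at position 8 and 0.672, 0.202 and 0.248 at position 9 in cycles 1, 2 and 3. At position 5 it was 0.0629, 0.0992 and 0.0455. The arrays of positions 8 and 9 lay above those of position 5. BAP3 had a fitted swing of 1.27 ± 0.20 log2 (SE, limma adjusted p = 4.9e-06) with its peak at position 10.3. That swing was 0.738 when 0.206 array medians were added before taking log2, and 1.58 with 0.0129, in place of 0.0516. The call at position 9 was lost without cycle 1 (adjusted p = 0.11).

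TAT1 encodes a permease for tyrosine, valine and other neutral amino acids, and it too is among the dimmest 25% of genes. It was 0.252, 0.710 and 1.06 at position 8 and 0.476, 0.141 and 0.134 at position 9 in cycles 1, 2 and 3. In cycles 2 and 3 no other array of TAT1 went above 0.389, so the burst was 1 interval wide. Position 8 was the only position called, at 1.51 ± 0.27 log2 above the others (SE, limma adjusted p = 4.3e-05). TAT1 had no call for a cosine of 12 intervals, with a swing of 0.26 ± 0.30 log2 (adjusted p = 0.71).

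TAT2, the high-affinity permease for tryptophan and tyrosine, had a broader course. It was 1.87, 3.65 and 4.35 at position 8 and 3.74, 1.79 and 2.48 at position 9 in cycles 1, 2 and 3. Positions 10 to 12 stayed between 1.66 and 2.30, and positions 2 to 6 between 0.702 and 1.18. These later and earlier arrays did not overlap. The fitted swing of TAT2 was 1.53 ± 0.15 log2 (SE, limma adjusted p = 1.9e-10), with its peak at position 9.51. It lay at position 9.80, 9.54 and 9.15 when each cycle was fitted alone.

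GNP1 encodes a high-affinity glutamine permease, and its burst was 1 interval wide in each cycle. In cycle 1 it went from 2.67 at position 8 to 12.5 at position 9 and 0.765 at position 10. In cycle 2 it went from 1.85 at position 7 to 8.87 at position 8 and 1.78 at position 9. In cycle 3 the same positions gave 1.88, 10.5 and 1.74. The burst array was above every other array of its cycle by over 3-fold, and position 10 was low in each cycle, at 0.821 ± 0.0545 (SD, n = 3). GNP1 was called higher at position 8 by 2.02 ± 0.34 log2 (SE, limma adjusted p = 1.8e-05) and at position 9 by 1.06 ± 0.34 (adjusted p = 0.011). These SEs pool the spread over all positions and understate it here. The SD of the log2 values of GNP1 was 1.07 at position 8 and 1.61 at position 9, but 0.0906 at position 10. The call at position 9 rests on cycle 1, since without it the adjusted p was 0.80. A cosine of 12 intervals was not called for GNP1, with a swing of 0.88 ± 0.38 log2 (adjusted p = 0.10).

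MUP1, the high-affinity methionine permease, had the largest range of the 10 genes. It was 7.95, 17.1 and 21.9 at position 8 and 16.1, 19.9 and 6.62 at position 9 in cycles 1, 2 and 3. At position 2 it was 0.548, 0.630 and 0.665, the lowest array of each cycle. The means were 15.7 ± 7.08 (SD, n = 3) at position 8 and 0.614 ± 0.0600 at position 2, and the mean log2 values differed by 4.44, which is 21.8-fold. MUP1 climbed over several intervals, with means of 2.84 ± 0.310 at position 6 and 5.25 ± 0.872 at position 7. Its fitted swing of 3.44 ± 0.30 log2 (SE, limma adjusted p = 4.7e-12) had its peak at position 8.55, and at 8.63, 8.55 and 8.46 in the cycles fitted alone.

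LYP1, the lysine permease, was 7.14, 10.8 and 14.8 at position 8 and 13.5, 4.21 and 6.08 at position 9 in cycles 1, 2 and 3. All its other arrays lay between 3.20 and 7.25. Position 8 was called, at 1.02 ± 0.21 log2 above the others (SE, limma adjusted p = 0.00027), and no other position was. Its fitted swing was 0.54 ± 0.20 log2 (adjusted p = 0.042), and that call was lost when any 1 cycle was left out, with adjusted p between 0.062 and 0.19.

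DIP5 encodes the permease for glutamate and aspartate, the dicarboxylic amino acids. It had a second maximum at position 1. At position 9 it was 28.5, 28.2 and 9.29 in cycles 1, 2 and 3, and at position 1 it was 16.8, 16.5 and 16.6. Between these maxima, at position 11, it was 2.44, 3.92 and 4.10, and after position 1 it was 7.62, 6.91 and 4.65 at position 2. The arrays of position 1 lay above those of positions 12 and 2, with a mean of 16.6 ± 0.172 (SD, n = 3). In cycle 3 position 1 was the highest array of the cycle. DIP5 was higher than at the other positions by 2.48 ± 0.24 log2 (SE) at position 9 (limma adjusted p = 1.5e-09) and by 2.22 ± 0.24 at position 1 (adjusted p = 2.2e-08). It was lowest at position 6, with a mean of 1.56 ± 0.177 (SD, n = 3), and its mean log2 value there was 12.2-fold below that of position 9.

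**Figure D3:**
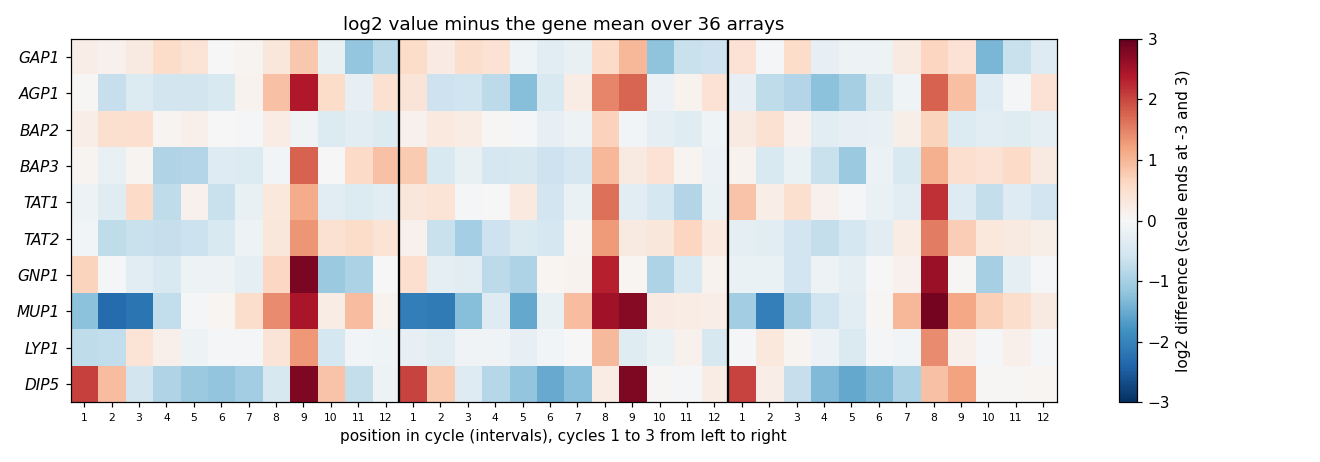
The log2 value of each permease gene minus its mean over the 36 arrays (colour, log2 units), with the positions of cycles 1 to 3 from left to right and black lines between cycles. Red columns at positions 8 and 9 recur in each cycle, and DIP5 is also red at position 1 of each cycle.

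All 10 members differed between the 12 positions by limma's F test, which assumes no shape, against 74.6% of all genes. The adjusted p ran from 1.1e-11 for DIP5 to 0.011 for LYP1. Without cycle 2 the call was lost for TAT1 (adjusted p = 0.15), GNP1 (0.053) and LYP1 (0.15), leaving 7 of the 10 against 44.9% of all genes. Without cycle 3 it was lost for TAT1 (adjusted p = 0.11) and LYP1 (0.16), leaving 8 against 57.0%. A cosine of 12 intervals was called for 7 of the 10, which is close to the 78.8% of all genes, and with a swing of at least 1 log2 for 5 of the 10, against 38.1%. The 5 were AGP1, BAP3, TAT2, MUP1 and DIP5, and with 0.206 added before taking log2 they were 4, without BAP3. The median swing was 1.08 log2 over the members and 0.773 over all genes. BAP2, TAT1 and GNP1 were not called. Fitted peaks lay away from positions 8 and 9 for GAP1 (position 5.0), BAP2 (3.8) and TAT1 (6.02). They lay at position 8.24 for GNP1, 7.95 for LYP1 and 11.2 for DIP5. GAP1 was called at an adjusted p of 0.048, with a swing of 0.65 ± 0.24 log2 (SE), and that call was lost when any 1 cycle was left out (adjusted p between 0.070 and 0.27), with the cycle as a replicate block (adjusted p = 0.056) or without the variance trend (adjusted p = 0.0502). The mean of 9 bacterial spike control probe sets swung by 0.53 log2 with its peak at position 3.45 (two-sided permutation p = 0.0144), which is similar in size to the swings of GAP1 and LYP1. Its part in these swings was not tested.

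A 6-interval term added to the 12-interval cosine was called for 6 of the 10 members, GAP1, AGP1, BAP2, TAT1, GNP1 and DIP5, against 12.4% of all genes (limma). Such a term is large where a gene has 2 maxima in a cycle or a narrow one. The 6-interval swing was 1.61 log2 for DIP5 (adjusted p = 0.0053), 1.34 for GNP1 (adjusted p = 0.014) and 1.02 for GAP1 (adjusted p = 0.00088). It exceeded the 12-interval swing in GAP1, BAP2, TAT1 and GNP1, that is in 4 of the 10 members and in 12.4% of all genes. MUP1 and TAT2 had 6-interval swings of 0.28 and 0.25 log2, with no call. Without cycle 2 or without cycle 3 the 6-interval term was called for 2 members, GAP1 and BAP2, in each case, against 4.12% and 3.54% of all genes.

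**Figure D4:**
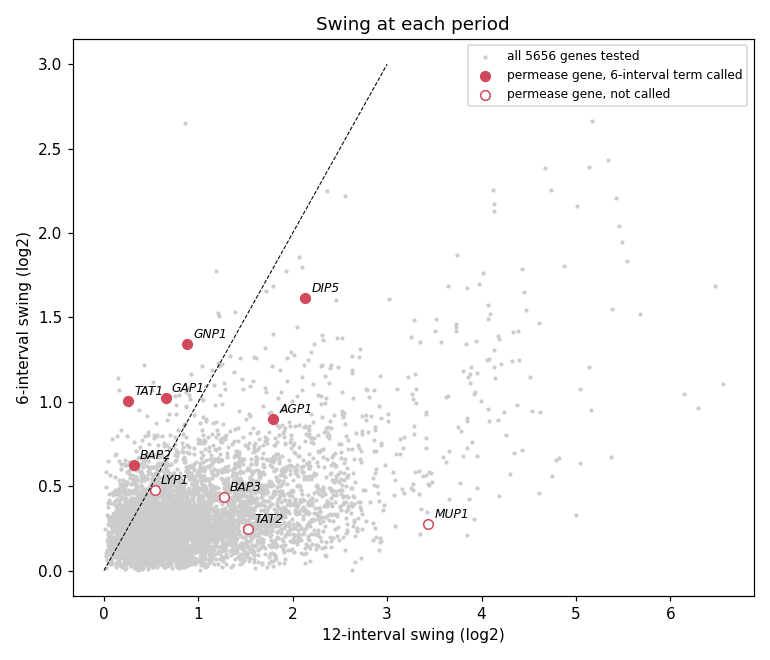
Fitted 6-interval swing against fitted 12-interval swing (both in log2 units) for the permease genes in red and all 5656 genes in grey, with filled points where the 6-interval term was called and a dashed line where both are equal. GAP1, BAP2, TAT1 and GNP1 lie above the line, and MUP1 lies far to the right near the bottom.

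Ordering the positions of a gene by their means gave mostly steps that the arrays could not separate. For BAP2, TAT1 and LYP1 the 3 arrays overlapped between all 11 neighbours in that order. For GAP1, BAP3, TAT2 and GNP1 they overlapped between 10 of the 11. For AGP1 and MUP1 the number was 8, and for DIP5 it was 9. Positions 8 and 9 stood first and second, in either order, for GAP1, AGP1, BAP3, TAT2, GNP1, MUP1 and LYP1. In AGP1 they were separated from the third position in that order, position 12, and in MUP1 from position 7. No all-gene shares are given here for these overlaps or for both positions standing first. The highest mean alone lay at position 8 or 9 in 33.6% of all genes.

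In limma, 0 of the 10 members were called for a level difference between cycles, against 0.0530% of all genes, or for a different 12-interval course, against 0.0354%. At an unadjusted p under 0.05 the number of members was also 0 in both tests, against 5.73% of all genes for the level and 4.61% for the course. The course test compares only 12-interval cosines, so it can hardly register a narrow burst that moves by 1 interval. GNP1 was 2.67, 8.87 and 10.5 at position 8 and 12.5, 1.78 and 1.74 at position 9, yet its unadjusted course p was 0.98 (limma). The test thus does not show that the courses of the cycles were alike.

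Related permeases were compared by the difference of their log2 values on each array, which compares courses and not levels. The pairs were chosen with earlier results of these data known, by kinship, chromosome position or substrate. For GAP1 with DIP5 no such relation was recorded. The p-values are from 100000 permutations of the 36 arrays, adjusted over the 6 pairs. These permutations treat the arrays as exchangeable, although they are serial samples of a time course. GAP1 against DIP5 had the largest swing of the difference, 2.78 log2 (2.93, 2.74 and 2.69 in the 3 cycles, permutation adjusted p = 1.5e-05). GAP1 against AGP1, the permeases of broad range, gave 2.28 log2, with GAP1 relatively highest at position 3.79 (permutation adjusted p = 1.5e-05). The related genes BAP2 and BAP3 differed by 1.58 log2, with 2.06, 1.13 and 1.55 in the cycles (permutation adjusted p = 1.5e-05). TAT1 and TAT2 differed by 1.61 log2 (permutation adjusted p = 1.5e-05). For these 4 pairs the raw p of 1e-05 is the smallest that the permutations can give. AGP1 and GNP1 differed by 1.17 log2 (1.09, 1.14 and 1.34 in the cycles, permutation adjusted p = 0.00016), and AGP1 was relatively highest at position 10.2, where GNP1 was low. BAP2 and TAT1, which are neighbours on chromosome II, differed by 0.32 log2, and that difference did not pass (permutation adjusted p = 0.42). It was 0.954, 0.260 and 0.319 in cycles 1, 2 and 3. Neither gene had a called 12-interval cosine, so this statistic could hardly separate them and does not show that their courses are alike. At position 8 TAT1 was 1.51 log2 above its other positions and BAP2 0.57. Only BAP2 was also called at positions 2, 3, 10 and 11.

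Over the 36 arrays, Pearson correlations of log2 values between members ran from -0.18 to 0.84, with a median of 0.49 over 45 pairs. These are descriptions, since the points share a time course and arrays. The highest was between AGP1 and TAT2. BAP2 correlated with BAP3 at 0.0031 and with GAP1 at 0.62. Outside the family, the genes above the dimmest 25% whose courses were most like each member came from several functions. AGP1 was most like IMD4, an IMP dehydrogenase (r = 0.92), and GUA1, the GMP synthase (0.92). MUP1 was most like DBP3, a helicase of ribosome assembly (0.93), and UTP22 of the small subunit processome (0.93). TAT2 was most like FSH1, a serine hydrolase (0.95), and DYS1, a deoxyhypusine synthase (0.94). GAP1 was most like HXT2, a hexose transporter (0.85), and the uncharacterised YCR051W (0.84), and BAP2 was most like DIF1 (0.86) and the glucose sensor RGT2 (0.81). DIP5 was most like GAS5, a cell wall glucanosyltransferase (0.87), and DAL5, the allantoate permease (0.86). For BAP3 the genes were MNN10 (0.91) and SRM1 (0.86), for TAT1 POR2 (0.81) and MET31 (0.79), for GNP1 RRP42 (0.88) and SUT2 (0.87), and for LYP1 DAT1 (0.90) and RIA1 (0.86).

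Of 10 other plasma membrane amino acid permeases, 9 were called with the 12-interval cosine and 7 of these with a swing of at least 1 log2. Over all genes these shares were 78.8% and 38.1%. Of the 9 called, 6 had their fitted peak at positions 7 to 12 and 3 at positions 1 to 6. No all-gene share is given here for that split. The median swing was 1.22 log2. By the mean of log2 values, 6 of the 10 were highest at position 8 or 9, namely CAN1, HIP1, SAM3, MUP3, AGP3 and UGA4, as were 33.6% of all genes. AGP3 and UGA4 lie among the dimmest 25% of genes. So does ALP1, whose swing of 2.94 ± 0.28 log2 (SE, limma adjusted p = 5.4e-11) was the largest of the 10. ALP1 was highest at position 3, with 1.38, 1.20 and 1.60, and lowest at position 9, with 0.384, 0.0309 and 0.114. PUT4, the proline permease, had the largest swing of those above the dimmest 25%, 2.71 ± 0.32 log2 (SE, limma adjusted p = 1.1e-08). It was 66.0, 60.7 and 60.5 at position 2 and 10.8, 4.50 and 4.45 at position 10, so its highest mean lay outside positions 8 and 9. AGP2, a membrane protein first described in carnitine uptake, swung by 2.02 ± 0.31 log2. It was lowest at position 8, with 3.08, 1.13 and 0.492. MMP1, the permease for S-methylmethionine, had the smallest swing, 0.29 ± 0.19 log2, and was not called (adjusted p = 0.35).

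Of 12 genes of the Ssy1 sensor pathway 9 were called with the 12-interval cosine (78.8% of all genes). A swing of 1 log2 was reached by 0 of them (38.1% of all genes). Of the 9 called, 6 had their fitted peak at positions 1 to 6 and 3 at positions 7 to 12, again with no all-gene share. The median swing was 0.582 log2, against 0.773 over all genes. ASI1 and ASI2, inner nuclear membrane proteins that keep the Stp factors off, swung by 0.81 ± 0.15 and 0.80 ± 0.18 log2 (SE), with peaks at positions 3.96 and 4.34. ASI1 was lowest at position 8, with 6.88, 4.79 and 3.30 in cycles 1, 2 and 3. By the mean of log2 values, 5 of the 12 genes were highest at position 8 or 9, against 33.6% of all genes. These were SSY5, STP1, DAL81, GRR1 and YCK2. GRR1, however, was lowest at position 8, with a mean of 2.18 against 3.05 at position 9. SSY5 and GRR1 were not called between positions (limma F test, adjusted p = 0.13 and 0.21). PTR3, a sensor subunit, swung by 0.12 ± 0.12 log2 and was not called (limma adjusted p = 0.60).

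Among 5 regulators of nitrogen catabolite control, 4 were called and 2 with at least 1 log2, against 78.8% and 38.1% of all genes. GAT1, an activator of GAP1, was 22.5, 20.0 and 8.66 at position 9 and 2.98, 3.08 and 3.08 at position 10, the positions where GAP1 was highest and lowest. The arrays of those positions did not overlap. The fitted swing of GAT1 was 1.025 ± 0.31 log2 (SE), with its peak at position 5.65. Of all genes, 24.3% were called higher at position 9 and 13.7% lower at position 10. A link between the courses of GAT1 and GAP1 was not tested. DAL80, a repressor of the same family, was 1.11, 5.51 and 3.88 at position 9 against 0.225, 0.263 and 0.382 at position 3, with a swing of 1.97 ± 0.36 log2 (SE). URE2, which holds Gln3 in the cytoplasm, swung by 0.15 ± 0.10 log2 and was not called (limma adjusted p = 0.32).

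Of 18 genes of permease sorting and turnover 9 were called, 2 of them with at least 1 log2, against the same 78.8% and 38.1%, and their median swing was 0.366 log2. The 2 were ALY2 and ECM21, arrestin-like adaptors that bring Rsp5 to permeases, at 1.55 ± 0.20 and 1.24 ± 0.19 log2 (SE). ALY2 was 3.60, 3.20 and 3.35 at position 7 against 0.477, 1.02 and 1.09 at position 11, and ECM21 was 7.88, 6.92 and 6.79 at position 7. Their highest means thus came 1 position before the burst, while their fitted peaks lay earlier, at position 5.12 for ALY2 and 4.8 for ECM21. MEH1, a subunit of the vacuolar complex that signals to TOR, swung by 0.11 ± 0.15 log2 (limma adjusted p = 0.75). Of 12 measured vacuolar amino acid transporters 7 were called, 2 with at least 1 log2, again against 78.8% and 38.1%. ATG22, of amino acid release from the vacuole, swung by 1.31 ± 0.20 log2 with a peak at position 4.97. YPQ1, of lysine import into the vacuole, swung by 1.11 ± 0.16 with a peak at position 8.35. AVT5, named as a vacuolar transporter, had 0.085 ± 0.12 log2 and no call.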

How the data were processed

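The deposited values are intensities of 9335 probe sets on 36 arrays. The authors' summarisation, scaling and software are not given in the sources used here. By the values themselves, each array's median is 1. The platform annotation gave 1 gene symbol to 6504 probe sets, and several to 328, did not list 2443, and 60 were controls. Symbols were updated through the R64 gene table. Each of 5656 genes was represented by its brightest probe set. Values were taken as log2(intensity + 0.0516), the 10th percentile of positive values, so folds of dim genes are understated.

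Fits were run in limma 3.58.1 (R 4.3.3), and summaries and permutations in pandas 2.3.3 and numpy 2.4.6 (Python 3.11.15). All genes were fitted together with a mean-variance trend, and p-values were Benjamini-Hochberg adjusted over all genes at 0.05. The fits were a cosine of 12 intervals, a 12-level position factor with each position against the mean of the others, an added 6-interval cosine, a cycle factor beside position, and cycle by cosine terms. The scripts were tested on simulated data.

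The members, pairs and gene lists were chosen with earlier results of these data known. Named genes were all members, the 2 genes most correlated with each, and in each list the 2 called genes with the largest swings and the 1 with the smallest, above the dimmest 25%. No promoter or protein sequence was used here.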

Additional observations from a re-analysis of the deposited data

How the results depend on the processing

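The 6-interval term was called for 6 members, and for between 2 and 5 when a cycle was left out, while the 46 calls at single positions became between 23 and 49. Fewer arrays were fitted in these settings. The remaining counts of members and pairs stayed within 1.5 times with pseudocounts of 0.0129 and 0.2063, quantile and trimmed-mean scaling, the mean of probe sets and each cycle left out. So did those run without dim genes or without the variance trend, which the pair count was not, and those run with the replicate block, which the level and course counts were not. With the cycle as a replicate block, 6 members were called with the 12-interval cosine in place of 7, since GAP1 had an adjusted p of 0.056 in limma. Without the variance trend that p was 0.0502. The block changed no other member's cosine call. Deviations of arrays of the same cycle from their position means had a median correlation of 0.017 over 198 pairs, from -0.68 to 0.47. This median does not show whether the cycle numbers pair the arrays. At position 8 the array of cycle 1 was the lowest of the 3 for every member. BAP3 and TAT1 have no values without the dimmest 25% of genes. Without cycle 1, the position 9 calls of GNP1 (adjusted p = 0.80) and BAP3 (adjusted p = 0.11) were lost. The mean of probe sets changes no member's own values, since each has 1 probe set.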
